A study of Rattus norvegicus with 10 samples.

Results

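The genes described here encode the proteins of the mitochondrial ribosome (symbols beginning with Mrpl or Mrps and a number) and of the machinery that imports proteins into mitochondria (Tomm or Timm and a number). They were chosen by symbol alone, from probe sets that the platform annotation gives to exactly 1 gene. The rule found 94 genes with 117 probe sets, out of 9378 genes with 12562 such probe sets. Of these, 73 genes were mitochondrial ribosomal proteins, 46 with symbols of the large subunit (Mrpl) and 27 with symbols of the small subunit (Mrps). The other 21 were import genes, 8 with symbols of the translocase of the outer membrane (Tomm) and 13 with symbols of those of the inner membrane (Timm). Symbols need not match position, and exceptions are named below.

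RNA came from the left lateral lobe of the liver of 10 rats of the strain labelled CRL:WI (Han), aged 6 to 8 weeks, with 1 Affymetrix array per rat. The RG3487 group was 5 rats given 1 oral dose of RG3487 at 180 mg/kg, and the vehicle group was 5 rats given deionized water. Both were dosed by gavage in 5 ml/kg, and the sample labels place the livers 24 h after dosing, whereas the series text names 2 h. The sources used here give no sex, no scan date and no batch of arrays. Housing was in groups of 5, the size of a treatment group, and effects of a cage and of the compound cannot be told apart if each group shared a cage. RG3487 is a partial agonist of the alpha-7 nicotinic acetylcholine receptor.

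Mitochondria carry their own ribosomes, which translate the few proteins encoded by mitochondrial DNA, all of them core parts of the respiratory chain or of ATP synthase. The proteins of these ribosomes are encoded in the nucleus, made in the cytosol and imported. Import begins at the TOM complex of the outer membrane and continues through TIM23 (for precursors with a cleavable presequence) or TIM22 (for carrier proteins of the inner membrane), with small chaperones escorting hydrophobic proteins across the space between. Hepatocytes are rich in mitochondria, which hold much of the urea cycle, fatty acid oxidation and ketone synthesis.

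The values are MAS5 signal intensities, and the arrays had been scaled to a mean signal of 330 to 332. A log2 change is the mean log2 of signal plus 16 in RG3487 livers minus that in vehicle livers. A gene "passed" where limma gave an adjusted p under 0.05 (Benjamini-Hochberg, over 11894 probe sets), and is represented by its brightest tested probe set. Correlations between arrays were 0.977 to 0.986 within a group and 0.960 to 0.976 between groups. The median signal was 94.8 ± 1.6 with RG3487 and 89.0 ± 3.2 with vehicle (SD, n = 5 each, exact permutation p = 0.0159). The 18 hybridization control probe sets, which read transcripts added to each sample, averaged 9.71 on the log2 scale with RG3487 and 9.90 with vehicle. How a comparison is scaled therefore matters for small changes, and the 73 ribosomal and 20 import genes were also counted under 3 other scalings.

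Liver identity was checked with marker genes. Summed hepatocyte marker signal (6 genes) was 26004 to 30945 in RG3487 livers and 31153 to 32528 in vehicle livers. Among these markers Hnf4a was higher, and Apoa1, Tat and Cps1 were lower. The 8 Kupffer cell and monocyte markers summed to 2951 to 4024 with RG3487 and 3091 to 3859 with vehicle, with Lyz2 higher and Cd163 and C1qb lower. Endothelial markers summed to 1949 to 2277 with RG3487 and 2300 to 2569 with vehicle, with Lyve1 lower. Stellate cell markers summed to 1351 to 1582 with RG3487 and 1163 to 1542 with vehicle, with Col1a1 higher. Cholangiocyte markers summed to 154 to 294 with RG3487 and 122 to 204 with vehicle. Of 7 listed lymphocyte markers only 1 had a probe set of its own, Ptprc, which is not specific to lymphocytes. Ptprc had 52 to 103 with RG3487 and 76 to 96 with vehicle. Erythroid markers summed to 2616 to 3483 with RG3487 and 2775 to 4105 with vehicle. In bulk liver, fewer cells of a type and less RNA per cell cannot be told apart, and the part of these markers in the results below was not tested.

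Promoter sequences were matched for 77 of the 93 tested members from RefSeq (rat build GRCr8), each covering 250 bases before to 50 bases after the gene's start. Genes of mitochondrial proteins are known for binding sites of NRF-1, of ETS-family factors such as GABP (NRF-2) and of YY1 near the start, so these sites were searched for on both strands. The NRF-1 motif was GCGCA, then any base, then GCGC, the ETS motif CCGGAAG and the YY1 motif AAGATGGC. The promoters below belong to the member with the smallest p in its class among those holding a match (Mrpl49, Tomm22 and Timm8b), to the 1 member with all 3 motifs (Mrps18b) and, for contrast, to a member that did not pass (Timm10). Matches to the 3 motifs are in capitals, on the gene's strand from 5′ to 3′, and in Tomm22 and Timm10 a pair of ETS matches on opposite strands overlaps.
Mrpl49, chr1:212779278-212779577, minus strand: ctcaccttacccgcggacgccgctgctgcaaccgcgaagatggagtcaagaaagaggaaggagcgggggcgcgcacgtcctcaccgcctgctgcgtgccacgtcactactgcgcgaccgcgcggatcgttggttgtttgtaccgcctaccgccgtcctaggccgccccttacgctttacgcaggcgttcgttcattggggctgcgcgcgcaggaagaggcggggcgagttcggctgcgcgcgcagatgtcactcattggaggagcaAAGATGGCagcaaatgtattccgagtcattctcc
Mrps18b, chr20:2842756-2843055, plus strand: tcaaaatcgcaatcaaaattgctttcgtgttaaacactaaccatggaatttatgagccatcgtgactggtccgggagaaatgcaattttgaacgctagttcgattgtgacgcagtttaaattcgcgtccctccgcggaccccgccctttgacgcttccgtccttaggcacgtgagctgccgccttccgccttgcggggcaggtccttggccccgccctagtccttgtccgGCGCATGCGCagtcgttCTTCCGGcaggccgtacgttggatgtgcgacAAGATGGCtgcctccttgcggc
Tomm22, chr7:113107056-113107355, plus strand: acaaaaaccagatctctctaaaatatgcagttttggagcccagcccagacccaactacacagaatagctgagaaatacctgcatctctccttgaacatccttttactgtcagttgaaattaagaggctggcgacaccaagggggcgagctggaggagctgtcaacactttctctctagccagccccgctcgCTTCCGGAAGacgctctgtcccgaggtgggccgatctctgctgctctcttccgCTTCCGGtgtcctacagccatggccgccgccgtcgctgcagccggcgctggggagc
Timm8b, chr8:59850487-59850786, plus strand: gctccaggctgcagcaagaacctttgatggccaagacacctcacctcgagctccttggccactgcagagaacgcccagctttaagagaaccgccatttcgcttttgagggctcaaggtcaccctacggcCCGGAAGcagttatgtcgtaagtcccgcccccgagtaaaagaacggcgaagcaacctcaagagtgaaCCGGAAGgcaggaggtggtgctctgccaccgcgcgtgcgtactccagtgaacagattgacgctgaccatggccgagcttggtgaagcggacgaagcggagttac
Timm10, chr3:90314889-90315188, plus strand: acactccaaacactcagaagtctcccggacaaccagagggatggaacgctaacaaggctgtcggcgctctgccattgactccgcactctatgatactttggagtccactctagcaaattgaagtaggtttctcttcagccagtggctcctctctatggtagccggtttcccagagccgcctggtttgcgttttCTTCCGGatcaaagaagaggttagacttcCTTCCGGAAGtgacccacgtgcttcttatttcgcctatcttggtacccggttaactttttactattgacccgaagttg

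The YY1 motif stood in 23.7% of 59 mitochondrial ribosomal promoters and 5.56% of 18 import promoters, against 6.50% of the 6557 promoters of all tested genes and 3.44% of all 27457 promoters of the same length. In Mrpl49 its first base is base 267 of the window, in Mrps18b base 279. The ETS motif stood in 33.9% of ribosomal and 33.3% of import promoters, against 20.6% of tested genes and 9.22% of all promoters. The NRF-1 motif stood in 15.3% and 16.7% of the 2 member classes, against 11.4% and 4.71% of the same backgrounds. In all, 42 members held at least 1 of the 3, and 5 held both NRF-1 and ETS matches. Among the other letters searched, CACGTG (E-box) stood in 10.2% of ribosomal promoters, 16.7% of import promoters, 10.1% of tested genes and 6.65% of all promoters. CCAAT stood in 44.1%, 38.9%, 38.9% and 37.7% of the same sets, and GGGCGG (GC box) in 50.8%, 55.6%, 63.8% and 34.9%. TATAAA stood in 11.9% of ribosomal promoters, in 0 of 18 import promoters, and in 6.85% and 14.3% of the backgrounds.

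Members that rose were set beside members that did not, by the same motifs. The ETS motif stood in 33.3% of the 54 members higher in RG3487 livers and in 34.8% of the 23 others. NRF-1 stood in 14.8% of the higher members and 17.4% of the others, and YY1 in 20.4% and 17.4%. CCAAT stood in 48.1% of the higher members and 30.4% of the others, the GC box in 55.6% and 43.5%, the E-box in 9.26% and 17.4%, and TATAAA in 7.41% and 13.0%. These shares rest on few promoters and were not tested. A match is a run of letters and was not checked for binding, and a window without one may hold other forms of the site.

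The first comparison asked how mRNA of the mitochondrial ribosome differed between RG3487 and vehicle livers. All 73 genes were measured above the filter on dim probe sets, and 51 were higher in RG3487 livers (69.9%), 0 were lower and 22 did not pass. Over all 7727 genes tested, 22.3% were higher and 7.40% lower. The fitted change was above 0 in 73 of 73 ribosomal genes, against 66.2% of all genes. The changes were small: the median log2 change was 0.27, with a range of 0.01 to 0.58, against a median of 0.09 over all genes. With 16 added to each signal, the brightest probe set reached 1.5-fold in none of the 73. In 37 of the 73, every RG3487 animal lay above every vehicle animal, a pattern seen in 15.5% of all genes. In 0 of them did every RG3487 animal lie below every vehicle animal, against 4.78% of all genes.

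**Figure D1:**
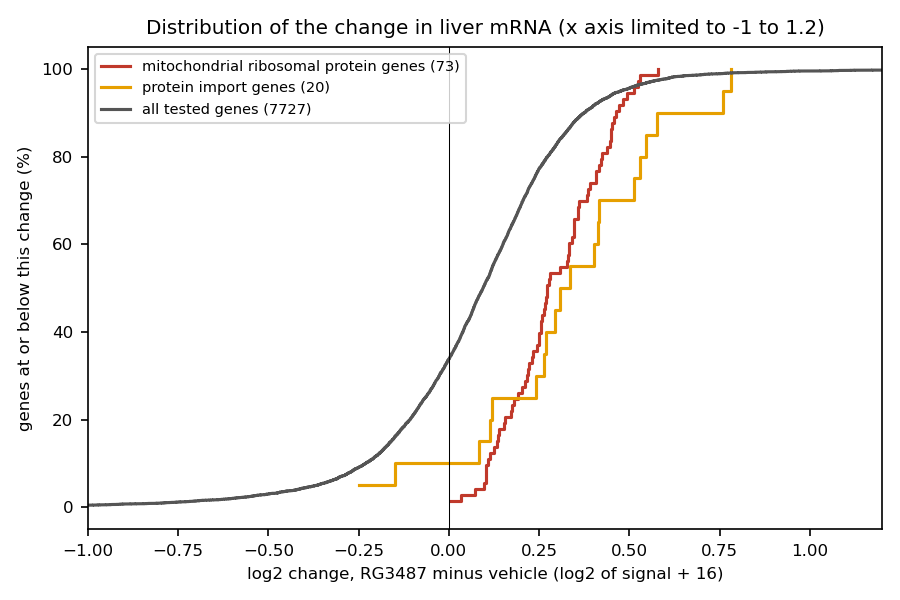
Cumulative distribution of the log2 change (RG3487 minus vehicle, x axis) over genes, with the percentage of genes at or below each change on the y axis. The curve of mitochondrial ribosomal proteins begins just above 0 and has its median at 0.27, that of import genes has its median at 0.32 and reaches below 0, and that of all genes has its median at 0.09.

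The share of higher genes depended on how the arrays were scaled. With quantile normalization, 27 of 73 ribosomal genes (37.0%) were higher, against 13.2% of all genes. With each array centred on its median the count was again 27, against 11.4% of all genes. With scaling to the hybridization controls it was 72 of 73, against 58.7% of all genes. No ribosomal gene was lower under any of these. Relative to the median of all genes, the ribosomal median was higher by 0.18 as deposited and by 0.16 after quantile normalization. Centring and control scaling shift all genes of an array equally. They therefore cannot change this difference, which stays at 0.18.

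Calls were fewer among dim genes, so members were counted within 4 equal groups of genes by mean signal. No ribosomal gene fell in the dimmest group, where 194 of 1932 genes were higher. In the next group 7 of 10 ribosomal genes were higher, against 20.2% of all genes. In the third it was 20 of 31, against 29.7%, and in the brightest 24 of 32, against 29.3%.

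Of 46 genes with Mrpl symbols, 34 were higher (73.9%), with a median log2 change of 0.29. With quantile normalization and with centred arrays 19 were higher (all genes 13.2% and 11.4%), and with scaling to the hybridization controls 45 (all genes 58.7%). Mrpl49, a protein found in mitochondrial but not bacterial ribosomes, had signals of 264, 254, 243, 260 and 300 in RG3487 livers, against 180, 187, 187, 182 and 164 in vehicle livers. All 5 RG3487 animals stood above all vehicle animals (log2 change 0.51 ± 0.07 SE, limma adjusted p = 0.000428). A second probe set of Mrpl49 had 186, 195, 191, 232 and 237 with RG3487, against 127, 151, 128, 115 and 138 with vehicle. It changed by 0.60 ± 0.09 (limma adjusted p = 0.000753), again without overlap. Mrpl23, which has a counterpart in the bacterial ribosome, had 353, 402, 354, 369 and 374 with RG3487, against 287, 273, 279, 273 and 280 with vehicle. The vehicle values of Mrpl23 lay within a narrow band below every RG3487 value (0.39 ± 0.06, limma adjusted p = 0.000613).

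Mrpl12 forms the stalk of the large subunit, where translation factors dock. It had 761, 703, 673, 806 and 929 in RG3487 livers, against 518, 506, 573, 544 and 502 in vehicle livers, with no overlap and the highest value in RG3487 animal 5 (log2 change 0.53 ± 0.08, limma adjusted p = 0.000943). Mrpl43, specific to mitochondrial ribosomes, had 739, 670, 710, 777 and 761, against 551, 563, 585, 598 and 560 with vehicle. Its groups did not overlap (0.35 ± 0.06, limma adjusted p = 0.00124). Mrpl16, whose bacterial counterpart sits near the tRNA sites, had 603, 595, 620, 616 and 660 with RG3487, against 447, 483, 524, 459 and 485 with vehicle. It too was separated completely (0.36 ± 0.06, limma adjusted p = 0.00127).

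The 12 Mrpl genes that did not pass were Mrpl10, Mrpl14, Mrpl15, Mrpl21, Mrpl28, Mrpl30, Mrpl42, Mrpl46, Mrpl48, Mrpl51, Mrpl52 and Mrpl55, with fitted log2 changes of 0.01 to 0.43. Mrpl14 shows how spread decides a call. It had 178, 136, 177, 185 and 145 in RG3487 livers, against 174, 140, 87, 103 and 100 in vehicle livers, so vehicle animals 1 and 2 lay within the RG3487 range (0.43 ± 0.15, limma adjusted p = 0.0582). Without vehicle animal 1 the adjusted p was 0.0108. Mrpl28 had a change of 0.03 (limma adjusted p = 0.805). That of Mrpl28 was -0.07 with quantile normalization and -0.06 with centred arrays. Mrpl51 was read by 4 probe sets. Its brightest had 488, 486, 542, 486 and 543 with RG3487, against 517, 509, 522, 498 and 487 with vehicle, fully interleaved (0.01, 95% interval up to 0.13, limma adjusted p = 0.958). Another Mrpl51 probe set had 83, 90, 99, 97 and 84 with RG3487, against 70, 66, 75, 64 and 64 with vehicle, without overlap (0.35 ± 0.08, limma adjusted p = 0.00568). The other two did not pass (0.07, limma adjusted p = 0.694, and a change near 0, 0.993). Which of these probe sets best reads Mrpl51 is not known from the table.

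Of 27 genes with Mrps symbols, 17 were higher (63.0%), with a median log2 change of 0.25. With quantile normalization and with centred arrays 8 were higher (all genes 13.2% and 11.4%), and with scaling to the hybridization controls 27 (all genes 58.7%). Mrps7 has a bacterial counterpart that helps to nucleate assembly of the small subunit head. It had 580, 535, 588, 650 and 633 in RG3487 livers, against 414, 436, 442, 432 and 438 in vehicle livers, with a wide gap between the groups (0.45 ± 0.06, limma adjusted p = 0.000468). Mrps34, specific to mitochondria, had 695, 635, 624, 653 and 739, against 456, 463, 543, 471 and 440 with vehicle. No vehicle animal reached an RG3487 value (0.48 ± 0.07, limma adjusted p = 0.000648). Mrps14 had 504, 522, 494, 516 and 638 with RG3487, against 356, 355, 374, 435 and 402 with vehicle. RG3487 animal 5 was highest, and the other RG3487 animals still lay above all vehicle animals (0.46 ± 0.08, limma adjusted p = 0.00204). A second Mrps14 probe set gave 0.38 (limma adjusted p = 0.00590).

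Mammals have 3 mitochondrial proteins related to the single bacterial protein S18, and their mRNAs were measured side by side. Mrps18b showed the largest fitted change of the 73 genes. It had 698, 641, 548, 677 and 701 in RG3487 livers, against 448, 451, 436, 481 and 345 in vehicle livers, with no overlap (0.58 ± 0.09, limma adjusted p = 0.00116). Mrps18a, which lies in the large subunit in human structures, had 283, 254, 250, 279 and 291 with RG3487, against 244, 219, 249, 234 and 223 with vehicle. The lowest RG3487 value of Mrps18a exceeded the highest vehicle value by 1 unit (0.20 ± 0.07, limma adjusted p = 0.0398). The Mrps18a call was lost without RG3487 animals 1, 4 or 5 or vehicle animals 2, 4 or 5 (adjusted p = 0.0683 to 0.0926), and under quantile normalization (0.262) and centring (0.230). Mrps18c had 271, 295, 310, 256 and 313, against 279, 232, 329, 266 and 246 with vehicle, with overlap and the highest value in vehicle animal 3 (0.10 ± 0.09, 95% interval up to 0.30, limma adjusted p = 0.467). The differences between the 3 changes were not tested.

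Mrps9 shows a disagreement between probe sets. The brighter had 288, 340, 337, 358 and 343 in RG3487 livers, against 223, 255, 255, 205 and 259 in vehicle livers, without overlap (0.45 ± 0.08, limma adjusted p = 0.00208). The other had 173, 177, 150, 178 and 177, against 131, 180, 148, 141 and 169 with vehicle, where vehicle animal 2 was the highest of all (0.14 ± 0.09, limma adjusted p = 0.240). Mrps30, placed in the large subunit in human structures despite its name, had 420, 408, 410, 468 and 519 with RG3487, against 369, 329, 318, 287 and 290 with vehicle. Its groups were separate (0.46 ± 0.09, limma adjusted p = 0.00263). The 10 Mrps genes that did not pass were Mrps11, Mrps15, Mrps17, Mrps18c, Mrps23, Mrps24, Mrps26, Mrps27, Mrps28 and Mrps33, with fitted changes of 0.07 to 0.17. The smallest was that of Mrps11, with 316, 313, 322, 271 and 269, against 283, 246, 315, 279 and 290 with vehicle (0.07 ± 0.08, 95% interval up to 0.25, limma adjusted p = 0.518). RG3487 animals 4 and 5 of Mrps11 were each below 4 of the 5 vehicle animals.

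**Figure D2:**
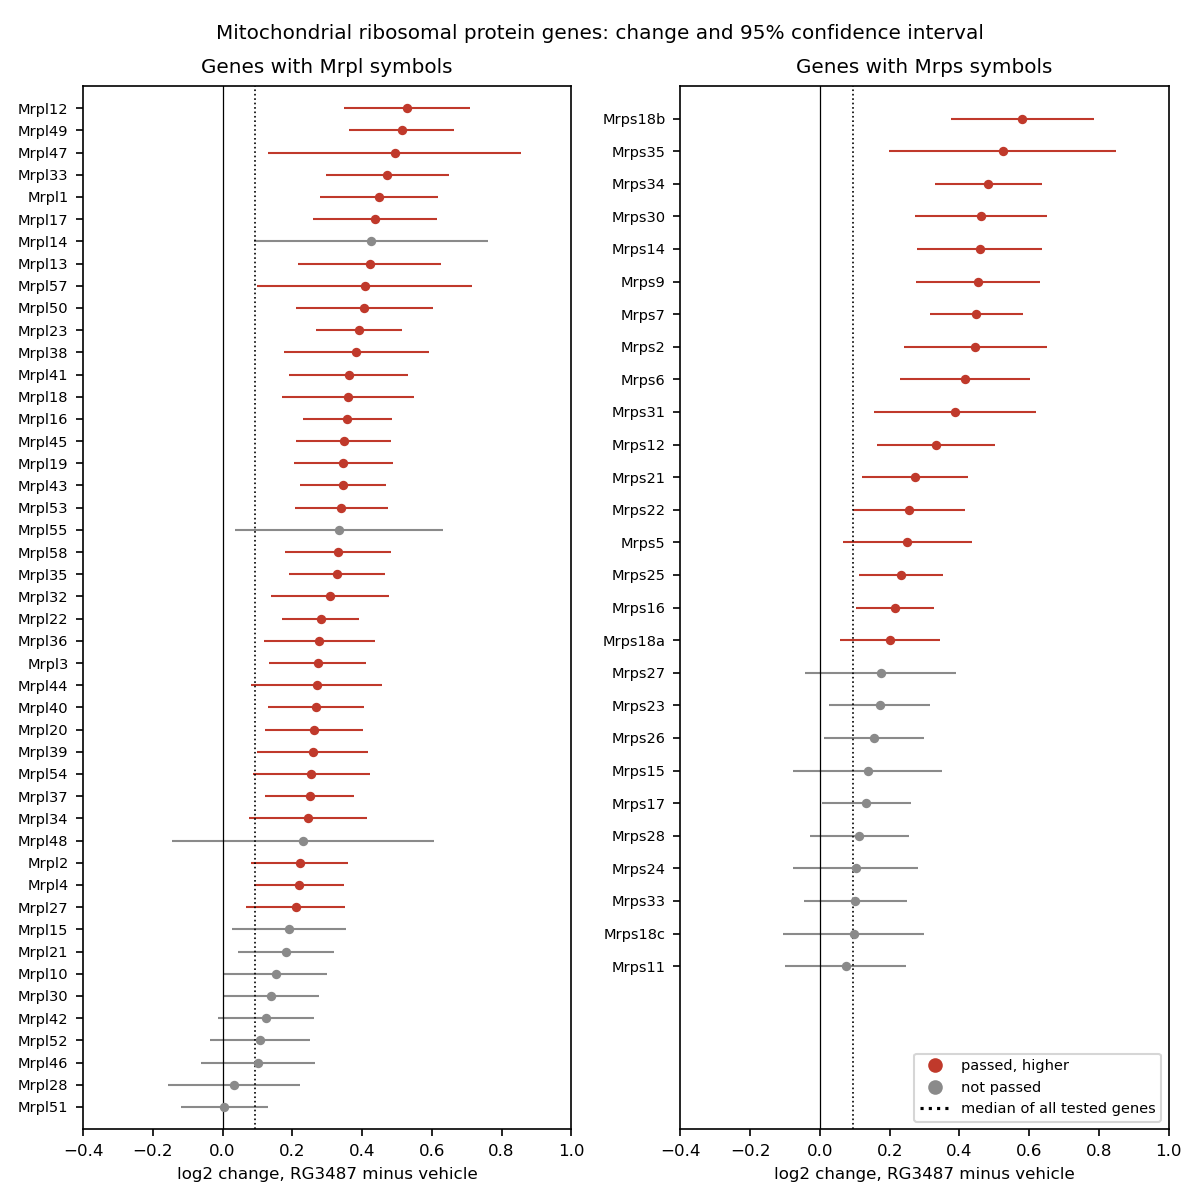
Log2 change (RG3487 minus vehicle, x axis) of each mitochondrial ribosomal protein gene with its 95% confidence interval, Mrpl and Mrps symbols in separate panels, ordered by change; the dotted line is the median of all genes, 0.09. All 73 points lie above 0, the lowest at 0.0051, and the largest are Mrpl12 (0.53) and Mrps18b (0.58).

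The second comparison asked the same of the import genes. Of 21 genes, Timm44, which anchors the import motor, was the only one left out by the filter, with a signal of 27.2 ± 10.6 in RG3487 livers and 24.4 ± 13.3 in vehicle livers (SD, n = 5 each). Among the 20 tested, 13 were higher in RG3487 livers (65%), 1 was lower and 6 did not pass, against 22.3% higher and 7.40% lower over all genes. The median log2 change was 0.32, with a range of -0.25 to 0.78. In 8 of the 20 every RG3487 animal lay above every vehicle animal, against 15.5% of all genes. Under quantile normalization 10 were higher, under centring 9 and under scaling to the hybridization controls 17. The shares of all genes higher under these scalings were 13.2%, 11.4% and 58.7%.

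Of 8 genes with Tomm symbols, 6 were higher, with a median log2 change of 0.46. With quantile normalization and with centred arrays 5 were higher (all genes 13.2% and 11.4%), and with scaling to the hybridization controls 7 (all genes 58.7%). Tomm70, a receptor that takes carrier precursors from cytosolic chaperones, had 769, 1000, 858, 993 and 1019 in RG3487 livers, against 629, 601, 562, 582 and 336 in vehicle livers. The groups did not overlap, and vehicle animal 5 was far below the other vehicle animals (log2 change 0.78 ± 0.15, 1.72-fold, limma adjusted p = 0.00282). Without that animal the change was 0.62 (limma adjusted p = 0.000937). In the other Tomm70 probe set vehicle animal 5 did not stand apart, with 491, 460, 416, 487 and 562 with RG3487, against 393, 374, 384, 376 and 383 with vehicle. That probe set gave a smaller change (0.32 ± 0.07, limma adjusted p = 0.00747), also with separate groups.

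Tomm20, the receptor for presequences, had 984, 1246, 919, 1134 and 1160 in RG3487 livers, against 650, 1034, 765, 688 and 686 in vehicle livers. Vehicle animal 2 lay within the RG3487 range (0.51 ± 0.12, limma adjusted p = 0.00926). An exact rank-sum test passed only genes whose groups did not overlap, here and below, so it repeats that overlap (adjusted p = 0.100). The other Tomm20 probe set passed with separate groups (0.32 ± 0.08, limma adjusted p = 0.0104). Tomm22, the central receptor that links the others to the channel, had 760, 806, 739, 869 and 870, against 571, 576, 633, 582 and 649 with vehicle, with a clear gap (0.41 ± 0.07, limma adjusted p = 0.00102). Tomm40, the channel itself, had 218, 147, 109, 194 and 269 with RG3487, against 117, 99, 89, 85 and 110 with vehicle. RG3487 animal 3 fell below vehicle animals 1 and 5, and the RG3487 values spread widely (0.76 ± 0.19, 1.69-fold, limma adjusted p = 0.0103, exact rank-sum adjusted p = 0.100).

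The small subunits of the TOM complex differed among themselves in call. Tomm6 had 565, 563, 573, 553 and 661 in RG3487 livers, against 388, 341, 436, 454 and 381 in vehicle livers, without overlap (0.53 ± 0.08, limma adjusted p = 0.000892). Tomm5 had 363, 418, 434, 449 and 529, against 344, 312, 380, 360 and 316 with vehicle, where RG3487 animal 1 lay below vehicle animal 3 (0.34 ± 0.09, limma adjusted p = 0.0187). The Tomm5 call was lost with quantile normalization (adjusted p = 0.0804), with centred arrays (0.0776) and in the exact rank-sum test (0.0647). Tomm7 had 1088, 1108, 1088, 1135 and 1267, against 999, 966, 1039, 1118 and 1101 with vehicle, and did not pass (0.12 ± 0.06, 95% interval up to 0.25, limma adjusted p = 0.164). Tomm34, a cytosolic co-chaperone rather than a part of the TOM complex, was dim. It had 35, 47, 48, 51 and 36 with RG3487, against 63, 58, 44, 54 and 33 with vehicle, with full overlap (-0.15 ± 0.14, limma adjusted p = 0.438), and its change was 0.05 after scaling to the hybridization controls.

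Of the 12 tested genes with Timm symbols, 7 were higher (58.3%) and 1 was lower, with a median log2 change of 0.28. With quantile normalization 5 were higher (all genes 13.2%), with centred arrays 4 (11.4%) and with scaling to the hybridization controls 10 (58.7%). Timm17a and Timm17b are alternative subunits of the TIM23 channel complex. Timm17a had 378, 420, 364, 430 and 487 in RG3487 livers, against 259, 285, 307, 265 and 247 in vehicle livers, without overlap (0.58 ± 0.09, limma adjusted p = 0.000718). Timm17b had 138, 140, 111, 163 and 127, against 105, 119, 131, 101 and 93 with vehicle, where vehicle animal 3 exceeded RG3487 animals 3 and 5 (0.27 ± 0.11, limma adjusted p = 0.0740). The Timm17b change passed without RG3487 animal 3 (0.0310) or without vehicle animal 3 (0.0400), and the difference between the 2 genes was not tested.

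Other parts of TIM23 passed with smaller fitted changes. Timm21, which in yeast links TIM23 to the TOM complex, had 184, 209, 165, 189 and 195 in RG3487 livers, against 145, 150, 159, 162 and 129 in vehicle livers, just separate (0.31 ± 0.08, limma adjusted p = 0.0133), and did not pass with quantile normalization (0.0668) or centring (0.0554). Timm50, the receptor of TIM23, had 254, 313, 282, 314 and 289, against 251, 220, 235, 251 and 257 with vehicle. Only RG3487 animal 1 lay below a vehicle animal (0.24 ± 0.07, limma adjusted p = 0.0280). The Timm50 call was lost without RG3487 animals 2, 4 or 5 or vehicle animals 2 or 3 (adjusted p = 0.0536 to 0.0690), with quantile normalization (0.210), with centring (0.190) and in the exact rank-sum test (0.0647).

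Small chaperones of the intermembrane space work in hexamers, Timm9 with Timm10 and Timm8 with Timm13. Timm8a1 had 336, 292, 286, 359 and 398 in RG3487 livers, against 201, 224, 259, 241 and 193 in vehicle livers, without overlap (0.54 ± 0.10, limma adjusted p = 0.00274). Its other probe set overlapped and gave 0.32 ± 0.12 (limma adjusted p = 0.0587). Timm8b had 840, 790, 818, 879 and 976, against 615, 567, 699, 701 and 655 with vehicle, again with a gap (0.40 ± 0.08, limma adjusted p = 0.00255). Timm13, their partner, had 1159, 1131, 1120, 1186 and 1228 with RG3487, against 874, 950, 1011, 1026 and 980 with vehicle, and its groups were separate (0.26 ± 0.06, limma adjusted p = 0.00518), although the call was lost with centred arrays (0.0663). All 3 genes of the Timm8 and Timm13 chaperone that were measured passed.

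Of the partner complex, neither Timm9 nor Timm10 passed in the main comparison, Timm9 narrowly. Timm9 had 305, 277, 299, 366 and 426 in RG3487 livers, against 286, 258, 269, 276 and 245 in vehicle livers, with vehicle animal 1 above RG3487 animal 2 (0.30 ± 0.10, limma adjusted p = 0.0519). It passed without RG3487 animal 2 (0.0288) or 3 (0.0435) and with the dimmest 50% left out (0.0437). It also passed in the fit to the mean of a gene's probe sets (0.0462) and with scaling to the hybridization controls (0.00211). Timm9 had only 1 tested probe set, so its change stayed at 0.30 in the mean and dimmest 50% fits. What differed there was the set of features fitted and adjusted over. Timm10 had 654, 585, 605, 749 and 707, against 548, 574, 735, 608 and 579 with vehicle, where vehicle animal 3 was second highest of all 10 (0.12 ± 0.09, 95% interval up to 0.31, limma adjusted p = 0.362). Its promoter, printed above, holds 3 ETS matches, the same number as that of Tomm22.

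The carrier translocase TIM22 gave readings that differed between probe sets. Timm22, its channel, had 101, 141, 128, 130 and 144 in RG3487 livers, against 85, 91, 107, 88 and 91 in vehicle livers, where RG3487 animal 1 lay below vehicle animal 3 (0.41 ± 0.09, limma adjusted p = 0.00749). A dimmer Timm22 probe set had 40, 51, 48, 52 and 68, against 51, 63, 52, 52 and 56 with vehicle, with full overlap (-0.07 ± 0.11, limma adjusted p = 0.641). The mean of both did not pass (0.17, adjusted p = 0.175), nor did the exact rank-sum test (0.0647). Timm29, a mammalian subunit of the complex, had 507, 467, 338, 499 and 394 with RG3487, against 422, 416, 412, 469 and 344 with vehicle, overlapping throughout (0.08 ± 0.11, limma adjusted p = 0.613).

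Timm10b, a small chaperone bound to TIM22, was the 1 member called lower. Its brighter probe set had 241, 220, 233, 281 and 260 in RG3487 livers, against 293, 273, 310, 340 and 266 in vehicle livers, where RG3487 animal 4 lay above vehicle animals 2 and 5 (-0.25 ± 0.08, limma adjusted p = 0.0449). The other probe set had 101, 130, 142, 118 and 150, against 80, 92, 120, 109 and 107 with vehicle, a fitted change in the other direction that did not pass (0.29 ± 0.12, limma adjusted p = 0.0759). The mean of both was 0.02. The call was lost without any 1 of RG3487 animals 1, 2, 3 and 5 and vehicle animals 1, 3 and 4 (adjusted p = 0.0599 to 0.104), with no filter on dim probe sets (0.0552), in the exact rank-sum test (0.100) and after scaling to the hybridization controls (0.640). Which probe set better reads Timm10b is not known from the table.

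**Figure D3:**
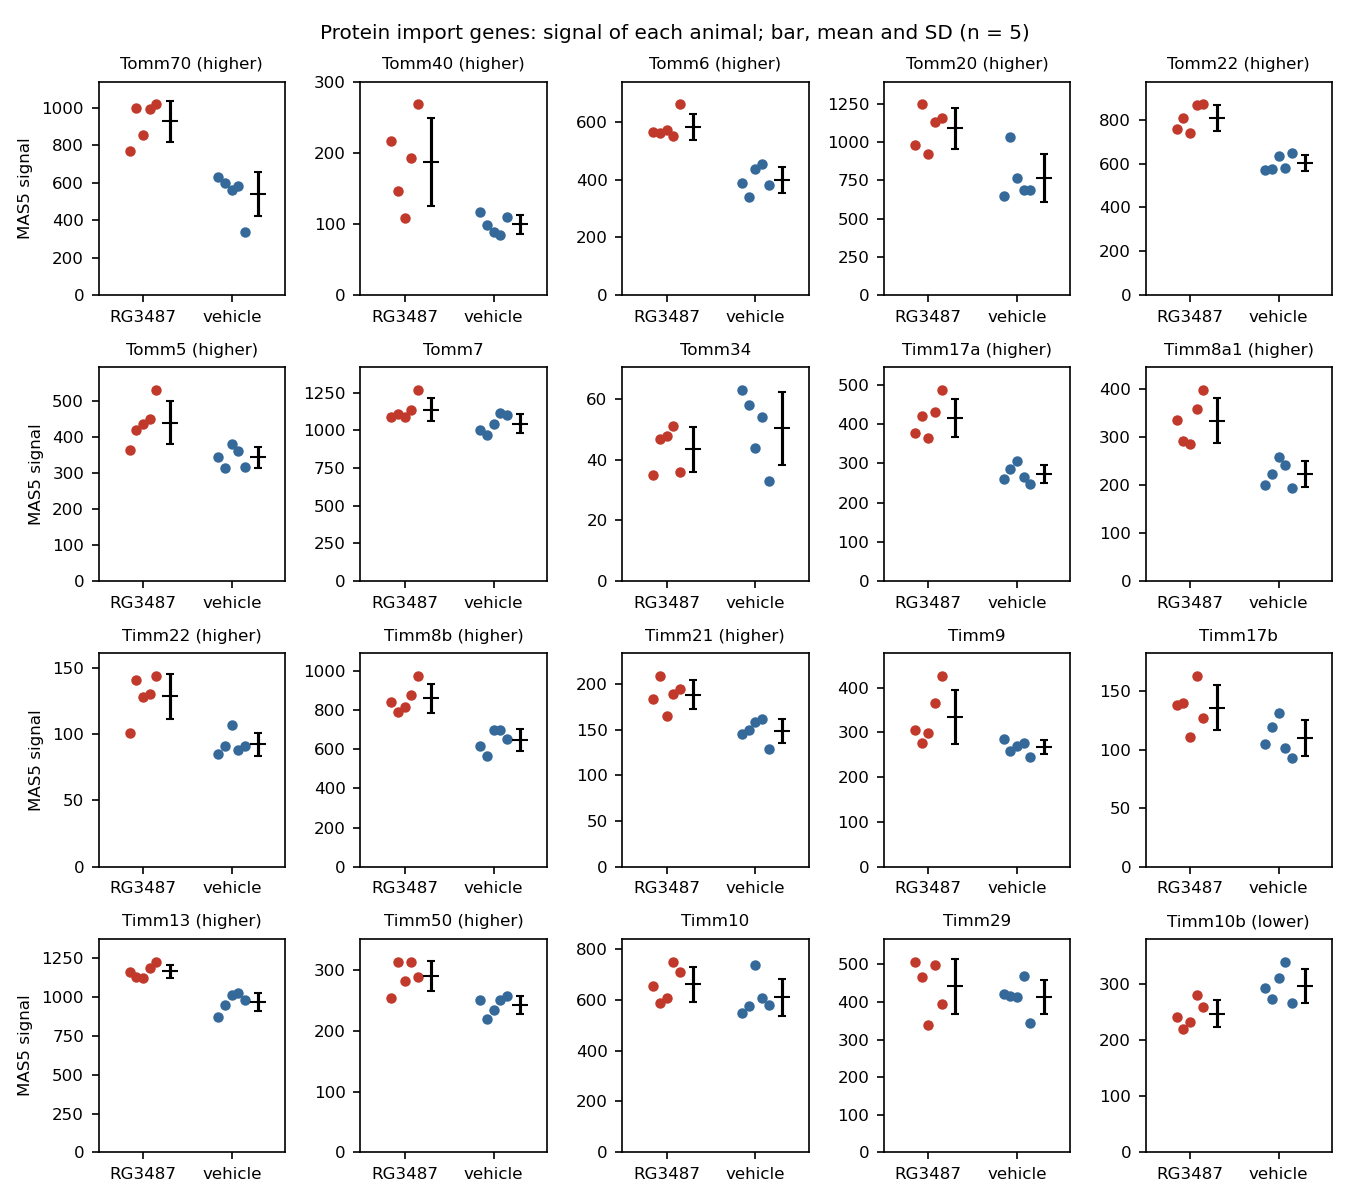
MAS5 signal (y axis, each panel from 0 with its own scale) of every tested import gene in each of 5 RG3487 livers (left) and 5 vehicle livers (right); bars give mean and SD, and "higher" or "lower" in a panel title marks genes past an adjusted p of 0.05. Tomm70 and Timm17a have separate groups, Tomm34 and Timm29 overlap, and Timm10b is the 1 gene marked lower.

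Probe sets of a gene were compared wherever more than 1 was tested. This was the case for 17 member genes, of which 9 had the same call from every probe set and 8 did not, and 5 differed in sign. Beside those above, Mrpl40 had changes of 0.27 (limma adjusted p = 0.00909) and 0.04 (0.809), Mrpl57 of 0.41 (0.0493) and 0.19 (0.149), and Mrps2 of 0.45 (0.00495) and 0.24 (0.0920). The Mrpl57 call was lost without any 1 of RG3487 animals 2 to 5 and vehicle animals 2 to 5 (adjusted p = 0.0547 to 0.115) and under both quantile normalization (0.142) and centring (0.133). That of Mrpl40 was lost under quantile normalization (0.109), centring (0.0797) and the mean of its probe sets (0.112). Mrpl52 had 0.11 and -0.06 and Mrps18c 0.10 and -0.03, and none of these 4 passed. Mrpl12 had a second probe set under the filter on dim probe sets, with 34, 40, 31, 46 and 32 in RG3487 livers, against 23, 24, 15, 23 and 15 in vehicle livers, higher in every RG3487 animal. Counted by probe set, 71 of 112 members were higher (63.4%), 1 was lower and 40 did not pass, against 20.5% higher and 7.16% lower over all 11894 probe sets. Using the mean of a gene's probe sets, 52 of 73 ribosomal and 13 of 20 import genes were higher, against 23.9% of all genes. In that fit p was adjusted over 7727 genes and not over probe sets.

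The animals were then set side by side. For each animal the median over the 73 ribosomal genes of log2 signal minus the vehicle mean was 0.25, 0.23, 0.25, 0.28 and 0.33 in RG3487 animals 1 to 5, against -0.04, -0.01, 0.08, 0.01 and -0.03 in vehicle animals 1 to 5. For the 20 import genes it was 0.29, 0.33, 0.21, 0.43 and 0.54 with RG3487, against -0.04, -0.02, 0.08, 0.08 and -0.11 with vehicle. Over all genes it was 0.07 to 0.11 with RG3487 and -0.04 to 0.02 with vehicle. Every RG3487 animal thus lay above every vehicle animal in both classes, but this was also so over all genes. It held for the ribosomal proteins of the cytosol too, with 0.155 to 0.280 in RG3487 animals and -0.099 to 0.123 in vehicle animals. Within the RG3487 group, animal 5 was the highest in 48 of 93 members, while it was the highest in 25.9% of all genes. Within the vehicle group, animal 3 was the highest in 42 of 93, against 23.9% of all genes. RG3487 animal 3 was the lowest of its group in 33 members, against 30.9% of all genes.

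**Figure D4:**
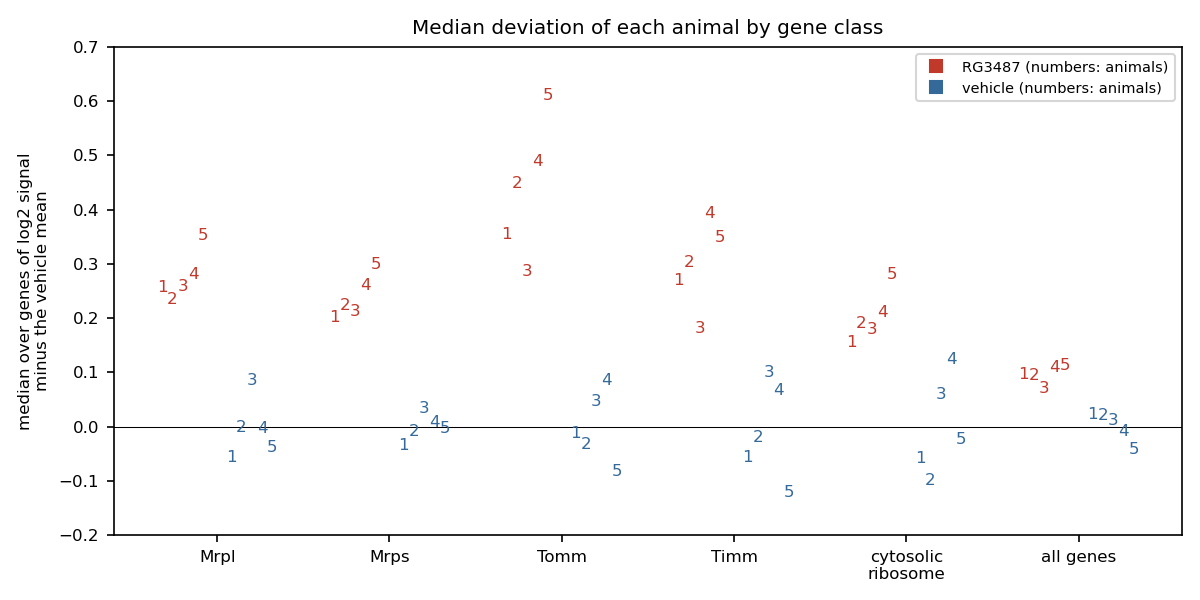
Median over the genes of each class of log2 signal minus the vehicle mean (y axis) for each animal, with RG3487 left of vehicle within each class on the x axis. RG3487 animals lie above vehicle animals in the Mrpl, Mrps, Tomm and Timm classes, and also in cytosolic ribosomal proteins and in all genes. The all-gene medians are 0.07 to 0.11 with RG3487 and -0.04 to 0.02 with vehicle.

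Leaving out each animal in turn, 41 to 51 ribosomal genes and 12 to 15 import genes were higher in RG3487 livers. The share of all genes higher in the same fits ranged from 16.7% to 23.3%. In all 21 alternative settings 29 of 93 members were higher (31.2%), 23 ribosomal and 6 import genes, against 9.34% of all genes. The exact rank-sum test among these settings passed only genes whose groups did not overlap, so all 29 are such genes. The import genes were Tomm6, Tomm22, Tomm70, Timm17a, Timm8a1 and Timm8b. The ribosomal genes included Mrpl12, Mrpl16, Mrpl23, Mrpl43, Mrpl49, Mrps7, Mrps9, Mrps14, Mrps18b, Mrps30 and Mrps34, and also Mrpl58, a peptidyl-tRNA hydrolase built into the ribosome. Mrpl58 had 291, 283, 283, 275 and 301 in RG3487 livers, against 204, 206, 248, 245 and 223 in vehicle livers, without overlap (0.33 ± 0.07, limma adjusted p = 0.00481).

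Ribosomal proteins of the cytosol give a neighbouring class for comparison. Of 42 such genes, 22 were higher in RG3487 livers (52.4%), 0 were lower, and the median log2 change was 0.20. The count moved with scaling and was 32 of 42 with quantile normalization (76.2%), 7 with centred arrays (16.7%) and 40 with scaling to the hybridization controls. Over all genes the shares higher were 13.2%, 11.4% and 58.7%, in the same order. The difference between the classes was not tested.

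Lists of other genes that serve the same processes were counted next, and their counts are read against 22.3% higher and 7.40% lower over all genes (11.4% and 12.2% with centred arrays, 13.2% and 10.1% with quantile normalization, 58.7% and 3.24% with scaling to the hybridization controls). Of 5 mitochondrial ribosomal proteins under other symbols, 3 were higher and 0 lower, with 2 higher under quantile normalization and centring and 5 under control scaling. Dap3, a GTP-binding protein of the small subunit, had 208, 206, 207, 198 and 214 in RG3487 livers, against 140, 131, 152, 145 and 143 in vehicle livers. The RG3487 values lay in a narrow band well above all vehicle values (0.49 ± 0.06, limma adjusted p = 0.00023). Aurkaip1 changed by 0.32 (limma adjusted p = 0.0122), with overlap. Of 20 genes of ribosome assembly and rRNA modification, 12 were higher and 0 lower, with 7 higher under quantile normalization and centring and 17 under control scaling. Mterf4, which guides the rRNA methyltransferase Nsun4, had 263, 247, 276, 269 and 334 with RG3487, against 191, 195, 202, 204 and 199 with vehicle, separate throughout (0.45 ± 0.08, limma adjusted p = 0.00157). Mtg2, a GTPase of large subunit assembly, changed by 0.35 ± 0.06 (limma adjusted p = 0.00158).

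Of 11 mitochondrial translation factors, 5 were higher and 0 lower, with 2 higher under quantile normalization and centring and 9 under control scaling. Mtif2, an initiation factor, had 300, 299, 327, 312 and 367 in RG3487 livers, against 223, 264, 227, 219 and 188 in vehicle livers, without overlap (0.49 ± 0.09, limma adjusted p = 0.00192). Slirp, which with Lrpprc stabilises mitochondrial mRNA, changed by 0.33 ± 0.06 (limma adjusted p = 0.00235). Of 11 tRNA synthetases and amidotransferase subunits, 6 were higher and 0 lower. Under quantile normalization 3 were higher and 1 lower, under centring 2 and 1, and under control scaling 9 and 0. Gatc, an amidotransferase subunit, changed by 0.46 ± 0.08 (limma adjusted p = 0.00202), and the histidyl-tRNA synthetase Hars2 by 0.41 ± 0.10 (limma adjusted p = 0.00853). Both had separate groups.

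Of 23 genes of the import motor, of precursor processing and of other import steps, 10 were higher (43.5%) and 1 was lower. Under quantile normalization 8 were higher and 1 lower, under centring 5 and 1, and under control scaling 21 and 0. Samm50, which inserts beta-barrel proteins into the outer membrane, had 289, 290, 277, 300 and 336 in RG3487 livers, against 163, 193, 236, 173 and 200 in vehicle livers. The groups were well apart (0.60 ± 0.09, limma adjusted p = 0.000906). Hspe1, the co-chaperonin of Hsp60, had 3826, 3887, 3815, 3855 and 3902, against 2764, 3132, 3365, 3207 and 2957 with vehicle, and its RG3487 values were the tighter group (0.32 ± 0.05, limma adjusted p = 0.00125). Pmpca, a subunit of the peptidase that removes presequences, went the other way, with 312, 307, 336, 354 and 331 in RG3487 livers, against 416, 415, 435, 443 and 408 in vehicle livers. Every RG3487 value of Pmpca lay below every vehicle value (-0.35 ± 0.06, limma adjusted p = 0.00133), although the call was lost after scaling to the hybridization controls (-0.16, adjusted p = 0.0563). Pmpcb, the other subunit of that peptidase, overlapped and did not pass (0.10 ± 0.06, limma adjusted p = 0.176).

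The list of mitochondrial proteases also holds the prohibitin Phb2, which is not itself a protease. Its genes were called in both directions, with 5 of 10 higher and 2 lower. Under quantile normalization and under centring 2 were higher and 2 lower, and under control scaling 8 and 1. The prohibitin Phb2 changed by 0.46 ± 0.07 (limma adjusted p = 0.00105). Clpp, the peptidase of the ClpXP protease, had 296, 289, 271, 300 and 323 in RG3487 livers, against 220, 213, 242, 248 and 211 in vehicle livers, all above (0.36 ± 0.07, limma adjusted p = 0.00285). Clpx, the unfoldase that feeds it, had 978, 919, 1269, 919 and 798 with RG3487, against 1703, 1492, 1323, 1406 and 1490 with vehicle, all below (-0.61 ± 0.11, limma adjusted p = 0.00189). Under all 4 scalings Clpp was called higher and Clpx lower, the 2 partners of ClpXP having changes of opposite sign in the same livers. Lonp1, the other main matrix protease, had 245, 262, 225, 263 and 269, against 373, 326, 325, 317 and 308 with vehicle, again all below (-0.36 ± 0.07, limma adjusted p = 0.00320). The Lonp1 call was lost after scaling to the hybridization controls (-0.17, adjusted p = 0.0741).

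Of 11 genes of mitochondrial DNA maintenance and transcription, 3 were higher (27.3%) and 1 was lower (9.09%), shares near those of all genes. Under quantile normalization and centring 1 was higher and 1 lower, and under control scaling 9 and 0. Ssbp1, which coats single-stranded mitochondrial DNA, changed by 0.41 ± 0.07 (limma adjusted p = 0.00147), and Top1mt, a topoisomerase, by 0.28 (limma adjusted p = 0.0210). The Top1mt call was lost with quantile normalization (0.0673) and centring (0.0902). Polg2, the accessory subunit of the DNA polymerase, had 160, 166, 206, 198 and 154 in RG3487 livers, against 311, 195, 231, 231 and 305 in vehicle livers, with overlap at vehicle animal 2 (-0.48 ± 0.13, limma adjusted p = 0.0157, and 0.0631 after scaling to the hybridization controls). Of 7 regulators of mitochondrial biogenesis that were tested, 1 was higher (14.3%, below the share of all genes) and 0 were lower. Under centring 1 was higher and 1 lower, the coactivator Ppargc1b (-0.29, adjusted p = 0.0382), and under control scaling 6 were higher and 0 lower. The gene higher as deposited was Yy1, which binds the YY1 motif, with 699, 668, 661, 732 and 718 with RG3487, against 553, 582, 590, 532 and 532 with vehicle, all above (0.31 ± 0.06, limma adjusted p = 0.00206).

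**Figure D5:**
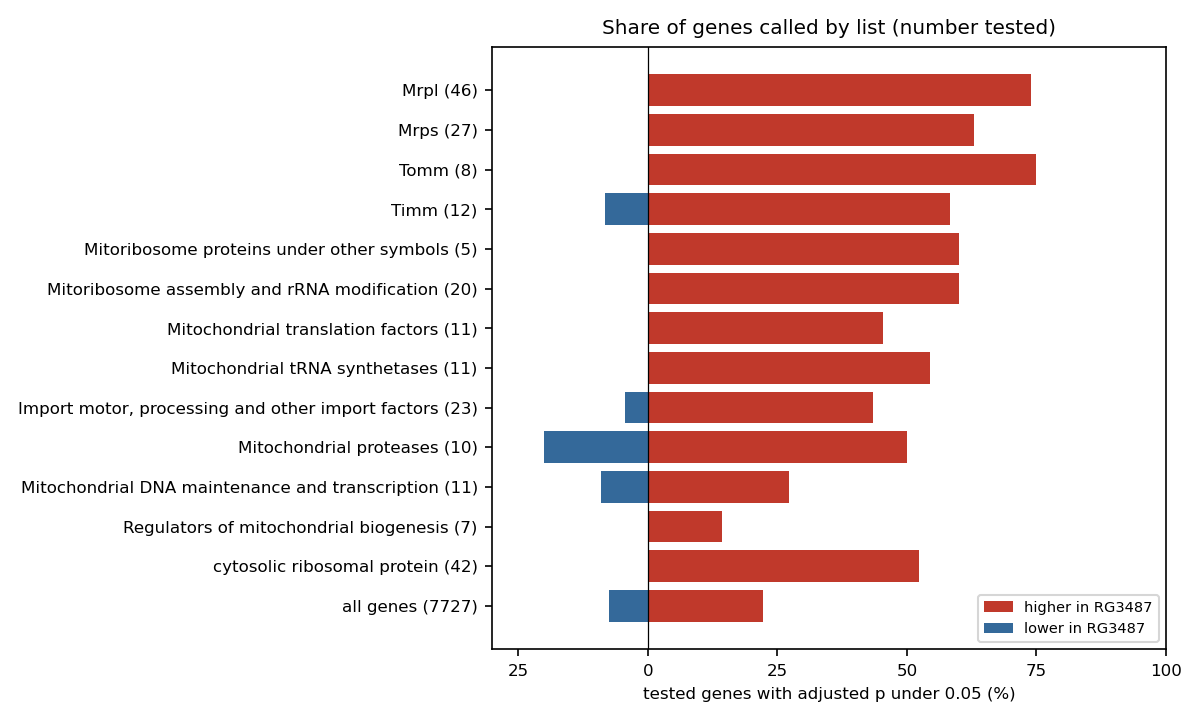
Share of tested genes called higher (to the right of 0) or lower (to the left) at an adjusted p under 0.05 for each list, in percent, with the number tested in brackets. The Tomm (75%), Mrpl (73.9%) and Mrps (63.0%) classes have the longest bars to the right, and all genes have 22.3% higher and 7.40% lower.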

How the data were processed

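Liver RNA of 10 rats, 5 given RG3487 and 5 given vehicle, was measured on 1 array each. The authors deposited linear signal intensities as whole numbers, 1 for each probe set, computed by MAS5 per the submitters' processing notes. Neither its version nor its scaling target is stated in the sources used here. The table holds 15899 probe sets, 40 of them controls. Among the remaining 15859, 12562 carry 1 gene, 332 several and 2965 none. Of those with 1 gene, 12527 were matched to RefSeq and 1 symbol was updated. One probe set that lists Timm23 among several genes was not used. The number of arrays limits the precision.

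A pseudocount of 16 was added to each signal before log2 was taken, which makes folds of dim genes smaller. The dimmest 25% of probe sets by mean log2 over all arrays (mean signal under about 40.2) were left out. The groups were compared over the 11894 others with limma 3.58.1 (lmFit, eBayes with trend) in R 4.3.3, with two-sided p-values adjusted by the Benjamini-Hochberg method over all of them and a threshold of 0.05. A gene was represented by its brightest tested probe set with 1 symbol, which gave 7727 genes. The code was tested on simulated data. Array measures were tested by exact two-sided permutation over 252 regroupings, whose smallest p is 0.00794. Animals are separate per the labels, but nothing says that they were dosed or processed apart.

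The members and all lists, including markers and companion lists, were chosen with earlier results of these data known. Values in every animal are given for the 5 members of lowest p per class, where so many passed, and for the member called lower. They are also given for most members with the largest p, for paralogs and for some genes whose probe sets disagree. Mrpl40, Mrpl52, Mrpl57 and Mrps2 have no such values here, nor do some further probe sets. In companion lists up to 2 genes in each direction with the smallest p are named. Any other member or companion gene was named with its values already known. The alternatives were pseudocounts of 1 and 64, no filter or the dimmest 50% left out, quantile normalization, centring on the array median, scaling to the hybridization controls, eBayes without trend, the replicate number as a block, an exact rank-sum test, the mean of a gene's probe sets, and each animal left out. Scaling to the hybridization controls assumes that every sample received equal amounts, and no source used here states it. Promoters and motifs are described with the results. Figures were drawn with matplotlib 3.10.9.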

Additional observations from a re-analysis of the deposited data

Results flagged for a closer look

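Each group of 5 animals was checked for 1 value far from the others by Dixon's ratio (critical value 0.71). The 190 groups were of member signals and of the per-animal medians of the ribosomal and import genes. Chance flags about 1 in 20, or 9.5 of 190, and 8 were found. In the RG3487 group, animal 5 stood above the rest in Mrpl27 (759, others 654 to 671), Mrps14 (638, others 494 to 522), Tomm6 (661, others 553 to 573) and Tomm7 (1267, others 1088 to 1135). RG3487 animal 2 stood above the rest in Mrpl3 (458, others 426 to 433). RG3487 animal 3 stood below the rest in Mrpl13 (258, others 295 to 304), and RG3487 animal 1 in Mrps9 (288, others 337 to 358). Vehicle animal 5 stood below the rest in the brighter Tomm70 probe set (336, others 562 to 629).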

How the results depend on the processing

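Probe sets higher in RG3487 livers numbered 2443 as deposited, 1423 with quantile normalization, 1194 with centred arrays and 6683 with hybridization control scaling; those lower numbered 852, 1454 with centred arrays, 354 with control scaling and 533 in the exact rank-sum test. Higher ribosomal genes numbered 27 with quantile normalization and 27 with centring, against 13.2% and 11.4% of all genes. The ribosomal median change was 0.18, 0.18 and, with control scaling, 0.47 (import 0.52). In the exact rank-sum test 8 import genes were higher, against 15.5% of all genes. The count of import genes lower was 0 with no filter, control scaling, the rank-sum test and the mean of probe sets. Of all genes, 6.05%, 3.24%, 4.78% and 7.57% were lower in these settings, in the same order. Leaving out each animal gave 41 to 51 ribosomal and 12 to 15 import genes higher, against 16.7% to 23.3% of all genes. It gave 0 to 1 import gene lower, against 6.10% to 7.65% of all genes. Probe sets higher then numbered 1803 to 2560 and those lower 688 to 889. The medians were 0.27 to 0.30 (ribosomal) and 0.29 to 0.36 (import). Signs reversed with quantile normalization in Mrpl28 (-0.0714), Mrpl46 (-0.00146), Mrpl51 (-0.0901), Mrps11 (-0.0285), Mrps18c (-0.00911) and Timm29 (-0.00878), with centring in Mrpl28 (-0.0618), Mrpl51 (-0.0898), Mrps11 (-0.0214) and Timm29 (-0.0114), with control scaling in Tomm34 (0.0457) and with the mean of probe sets in Timm10b (0.0230). Leaving out 1 animal gave -0.00845 to 0.11 for Mrpl28 and -0.0180 to 0.0208 for Mrpl51. With the replicate block, 44 ribosomal and 12 import genes were higher and 1 import gene was lower, against 19.2% and 7.07% of all genes. In that setting 8 of 93 members lost their call. Animals with the same number correlated at -0.04 to 0.17, and not each best with its own number, so the numbers were not taken to pair them. The causes were not tested.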
